A study of Homo sapiens with 2 samples.

Results

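Transcribed pseudogenes are gene copies that have lost their coding function but are still made into RNA. They were taken from the authors' deposited table of non-coding RNAs as the rows of type misc_RNA whose gene name ends in the letter P, alone or followed by digits. This name rule gave 203 of 3576 rows (5.68%), under 199 gene symbols, and 203 of the 280 misc_RNA rows (72.5%). The RNA came from the established human melanoma line A375, left unirradiated as the control (0 Gy) or given 8 Gy of ionizing radiation (IR). Both groups carry the genotype label WT, each is 1 library, and how long after irradiation the cells were harvested is not stated in what was read here. The study asked how melanoma cells become resistant to radiation.

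For each RNA the authors' deposited table compares 1 library with another by a log2 fold change, with its p-value and q-value. No label ties either library to a dose. They are therefore named after their place in the ratio, as numerator library and denominator library, and higher or lower says nothing about radiation. With 1 library on each side there are no replicates, and the p-values in the authors' deposited table compare libraries, not doses. The fold changes are ratios of whole read numbers for nearly all rows, which gave the smallest pair of reads that can lie behind each fold. The true reads are that pair or a whole multiple of it. The numbers in parentheses after a fold are the bounds of its exact 95% interval (Clopper-Pearson). They were computed from the ratio of the pair times a factor of 1.10. This factor is the most frequent fold, which was assumed to mean equal reads in both libraries, and sequencing depth itself was not measured. Under that assumption the intervals are the widest the reads allow. They cover counting error only, since reads copied by PCR are not independent molecules. RNA from a bulk culture cannot tell less RNA per cell from fewer cells that make it, and 1 line cannot stand for other melanomas.

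Pseudogenes arise by different routes. A processed pseudogene is a reverse-transcribed messenger RNA put back into the genome, usually without introns or its own promoter, so that it is transcribed where it lands near or inside another gene. An unprocessed pseudogene is a duplicated stretch of genome that keeps introns and often the parent's promoter, and a unitary pseudogene is the disabled remnant of a gene that has no working copy left. Some pseudogene RNAs act on their parents, for example by binding the same microRNAs. Because copies resemble their parents, short reads can be assigned to either.

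The label was checked against 2 annotations. In RefSeq, 200 rows were found by accession and 3 by symbol, and 201 of the 203 had a pseudogene biotype. The exceptions were MSL3P1, now MSL3B, and RPSAP58, now RPSA2, both of which RefSeq lists as protein coding. GENCODE 29 held 197 of the rows, of which 117 were typed as unprocessed, 58 as processed and 7 as unitary pseudogenes, while 15 had another type. A parent gene could be named for 175 rows, and these had 116 different parents. The RefSeq accession given for GUSBP9 is today listed under the symbol GUSBP17. The pseudogenes chosen as markers of blood (6) and of epithelium (5) were not listed, so the melanoma origin of the RNA could not be checked from these rows.

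The following stretches, from GENCODE 29 transcripts on GRCh38, show how close the pseudogenes described below are to their parents or sister copies. They were taken from the longest gap-free run of each alignment, within the coding part of a parent, so they may overstate the likeness of a pair. Each is 90 bases, 5′ to 3′ in the direction of transcription, and capitals mark the bases that differ between the members of a pair. HSP90B2P (chromosome 15) and its parent HSP90B1 (chromosome 12) differ at 5 bases here and are 93.4% identical over 2417 aligned bases.
HSP90B2P: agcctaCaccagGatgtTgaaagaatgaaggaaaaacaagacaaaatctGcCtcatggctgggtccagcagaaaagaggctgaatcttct
HSP90B1: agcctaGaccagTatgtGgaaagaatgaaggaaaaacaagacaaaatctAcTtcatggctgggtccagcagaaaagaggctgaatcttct
RALGAPA1P1 (chromosome 9) and RALGAPA1 (chromosome 14) do not differ at any base of their stretch and are 99.3% identical over 3679 bases, so a read from it matches both.
RALGAPA1P1: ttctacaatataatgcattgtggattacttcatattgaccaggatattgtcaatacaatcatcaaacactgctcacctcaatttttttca
The sister copies PI4KAP1 and PI4KAP2, both on chromosome 22, differ at 1 base here and are 95.55% identical over 1281 aligned bases.
PI4KAP1: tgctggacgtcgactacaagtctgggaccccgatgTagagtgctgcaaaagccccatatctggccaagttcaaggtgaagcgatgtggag
PI4KAP2: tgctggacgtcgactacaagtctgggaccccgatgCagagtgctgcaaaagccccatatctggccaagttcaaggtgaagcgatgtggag
GUSBP9 (chromosome 5) and GUSB (chromosome 7) differ at 9 bases and align over only 189 bases, with 91.5% identity.
GUSBP9: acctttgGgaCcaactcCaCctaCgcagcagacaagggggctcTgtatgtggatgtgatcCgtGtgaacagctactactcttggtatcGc
GUSB: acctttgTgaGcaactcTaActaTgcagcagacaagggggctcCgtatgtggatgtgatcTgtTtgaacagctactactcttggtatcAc

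Most pseudogene RNAs stood at similar levels in the 2 libraries. Of the 203 rows, 12 (5.91%) were higher in the numerator library by at least 2-fold, against 16.3% of all 3576 rows. At least 2-fold lower stood 4 rows (1.97%), against 6.35% of all rows. Within 1.5-fold in either direction lay 156 rows (76.8%), against 58.2% of all rows. The median log2 fold change computed from the authors' deposited table was 0.19 over the pseudogenes and 0.16 over all rows. Above 0 lay 138 pseudogenes (68.0%), against 60.9% of all rows. No value marks the point of no change for certain. Above the median of all rows lay 105 pseudogenes, as did 1788 of the 3576 rows. Above -0.1354, the value as far below 0 as the most frequent one lies above it, lay 164 pseudogenes. The share of all rows above -0.1354 was not computed, and a lower reference raises the count in any group of rows. The p-values of the authors' deposited table come close to 1 near -0.1354 (0.999 for MIPEPP3, whose value is -0.14).

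The smallest pairs of the pseudogenes were also larger than those of the table as a whole. A pair with at least 50 reads in 1 library was found for 137 pseudogenes (67.5%), against 40.4% of all rows. Among these 137, 5 were at least 2-fold higher and 1 was at least 2-fold lower, against 7.68% and 0.761% of all rows with such a pair. Above 0 lay 94 of them (68.6%), against 62.7% of all such rows. Within 1.5-fold lay 83.2% of them, against 76.8% of all such rows. The 2 groups were thus closer together among rows with larger pairs than among all rows; the part of read depth in the difference was not tested.

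A pair was found for 201 of the 203 rows, the exceptions being UBBP4 and GTF2IP1. The larger number of the pair ran from 1 to 1817, with a median of 101. The interval lay wholly above 1 for 49 pseudogenes (24.4%) and wholly below 1 for 13 (6.47%), against 21.4% and 7.72% of all rows with a pair, and 139 intervals held 1. With the median of all rows as the reference, 36 of the 201 intervals lay above it and 29 below, against 14.3% and 14% of all rows with a pair, so the balance of directions depended on the reference. In the authors' deposited table no pseudogene had a q-value under 0.05, against 0.839% of all rows. The lowest q-value there was that of GUSBP9, 0.549, and the other 202 were at 1. A p-value under 0.05 in the authors' deposited table belonged to 2 pseudogenes, GUSBP9 (0.00351) and LSP1P3 (0.0283), against 3.8% of all rows.

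**Figure D1:**
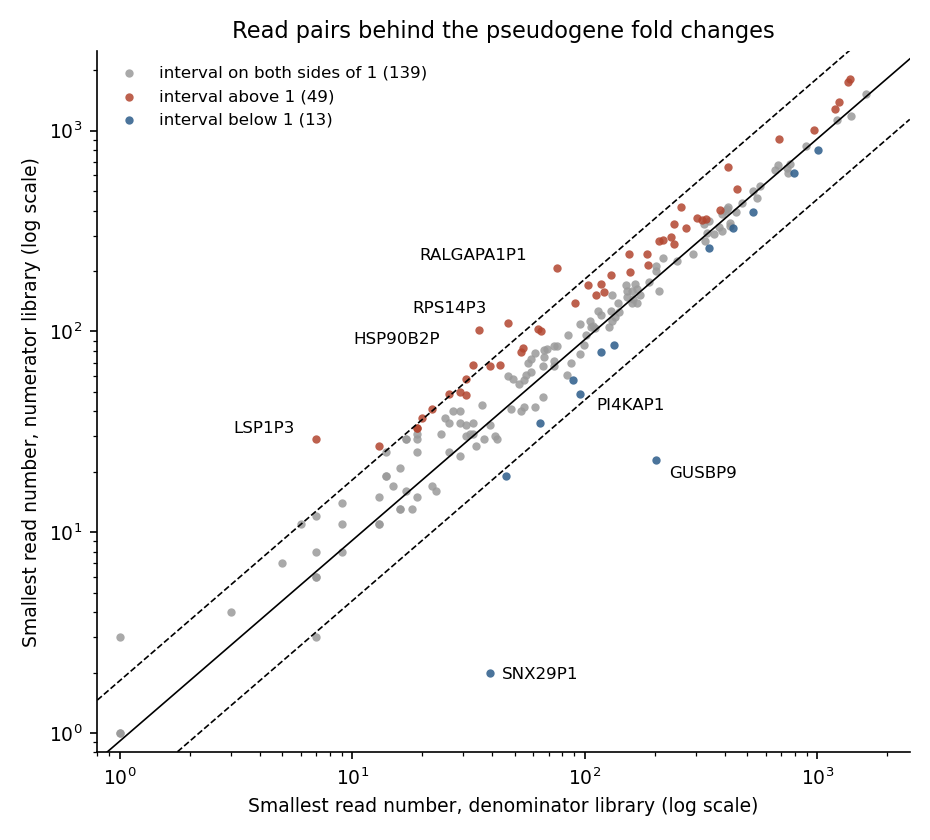
Smallest read number in the denominator library (x axis, log scale) against that in the numerator library (y axis, log scale) for the 201 pseudogenes with a pair. The solid line marks a fold of 1 and the dashed lines 2-fold higher and lower; the 139 grey points have an interval that holds 1, the 49 red points lie above and the 13 blue points below, with GUSBP9 and SNX29P1 far under the lower dashed line.

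The pseudogene RNAs with the largest smallest pairs lay between 0.930 and 1.44, although others may have as many reads, since a true number may be a multiple and UBBP4 and GTF2IP1 have no pair. EBLN3P, derived from an ancient bornavirus-like nucleoprotein sequence, had at least 1817 reads in the numerator and 1382 in the denominator library, a fold of 1.44 (1.35 to 1.55). ZNF37BP, a copy of the zinc finger gene ZNF37A, had at least 1757 and 1353 reads, a fold of 1.43 (1.33 to 1.53). CENPBD1P1 had at least 1517 and 1619 reads, a fold of 1.03 (0.959 to 1.10). The first 2 were higher in the numerator library by more than counting error, and CENPBD1P1 was not. ZNF252P stood at 1.22 (1.13 to 1.32), and HERC2P2, a copy of the ubiquitin ligase gene HERC2, at 1.18 (1.09 to 1.28). H3F3AP4, a processed copy of a histone H3.3 gene, had at least 1187 and 1402 reads, a fold of 0.930 (0.860 to 1.01). Every 50-base window of H3F3AP4 also occurs in transcripts of another locus, so its reads cannot be assigned to it with certainty.

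Among pseudogenes with a pair of 50 or more, the highest fold was that of HSP90B2P, a processed copy of the gene for the endoplasmic reticulum chaperone GRP94. It had at least 102 reads in the numerator and 35 in the denominator library, a fold of 3.20 (2.16 to 4.84). Only 5.65% of its 50-base windows occur elsewhere, and its locus overlaps the coding gene LRRC28. RALGAPA1P1, a processed copy of a gene for a subunit of the GTPase-activating complex of Ral proteins, had at least 207 and 76 reads, a fold of 2.99 (2.29 to 3.94). Of its windows 74.96% occur elsewhere, the same share in its parent, and the locus overlaps FSD1L. These were the 2 members at least 2-fold higher whose whole interval lay above 2. In the authors' deposited table their p-values were 0.416 for HSP90B2P and 0.499 for RALGAPA1P1.

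RPS14P3, a copy of the gene for a protein of the small ribosomal subunit, had at least 110 reads against 47, a fold of 2.57 (1.81 to 3.70). KLRA1P, the human remnant of a gene family that in mice encodes the Ly49 receptors of natural killer cells, had at least 68 against 33, a fold of 2.26 (1.47 to 3.54). The readthrough transcript DTX2P1-UPK3BP1-PMS2P11, which joins 3 pseudogenes, had at least 58 against 31, a fold of 2.06 (1.31 to 3.29). All 3 intervals lay above 1 and held 2. None of the 50-base windows of KLRA1P occurs elsewhere, while 58.0% of those of the readthrough do.

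The next 5 lay between 1.76 and 1.89. GLUD1P3, a copy of the gene for mitochondrial glutamate dehydrogenase, stood at 1.89 (1.18 to 3.10), and GBAP1, a copy of the gene for the lysosomal enzyme glucocerebrosidase, at 1.89 (1.25 to 2.88). ANKRD30BP2 stood at 1.81 (1.41 to 2.34) and SEC14L1P1 at 1.80 (1.30 to 2.50). SMG1P6, a copy of the gene for a kinase of nonsense-mediated mRNA decay, had at least 417 reads against 260, a fold of 1.76 (1.51 to 2.06). These 5 could not be ordered, because their intervals overlap.

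With a smallest pair under 50, 7 further pseudogenes were at least 2-fold higher. LSP1P3, a processed copy of a gene for an actin-binding protein of white blood cells, had at least 29 reads against 7, a fold of 4.55 (1.95 to 12.3). RNF138P1, a copy of a ubiquitin ligase gene that acts in the repair of DNA double-strand breaks, stood at 2.07 (1.26 to 3.47) and lies within PLPP1. DPRXP4, a copy of a homeobox gene, stood at 2.28 (1.14 to 4.82). FAM45BP stood at 2.05 (1.19 to 3.61) and SUGT1P3 at 2.03 (1.15 to 3.70). The intervals of MBL1P, the remnant of a mannose-binding lectin gene (a smallest pair of 3 and 1), and of RPS18P9 (a smallest pair of 11 and 6) held 1. Of all 12 pseudogenes at least 2-fold higher, 10 had an interval above 1.

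The lowest fold with a pair of 50 or more was that of GUSBP9, an unprocessed relative of GUSB, the gene for the lysosomal enzyme beta-glucuronidase. It had at least 23 reads in the numerator and 203 in the denominator library and was 8.04-fold lower in the numerator library (5.21 to 13.0). No other pseudogene with a smallest pair of 50 or more was 2-fold lower. All of its 50-base windows occur in transcripts of other loci, 98.7% of them in AC146944.1 and none in GUSB, so which locus gave the reads cannot be told apart. The part of this sharing in the fold was not tested.

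SNX29P1, a copy of a sorting nexin gene, had the lowest fold of all, from a smallest pair of 2 and 39 reads. Its ratio was 0.0563 (0.00659 to 0.218), and 72.7% of its windows are shared. In the authors' deposited table its p-value was 0.247. LAMB2P1, a copy of a laminin gene, was 2.20-fold lower (1.27 to 3.98) with at least 19 reads against 46. DOC2GP, a unitary pseudogene whose mouse counterpart encodes a C2-domain protein, had at least 3 against 7 reads and a ratio of 0.471 (0.0785 to 2.06). Of the 4 pseudogenes at least 2-fold lower, 3 had an interval below 1, and for GUSBP9 and SNX29P1 the whole interval lay beyond 2-fold.

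The remaining members at the low end lay within 2-fold. PI4KAP1, a copy of a phosphatidylinositol 4-kinase gene, had at least 49 reads against 95 and was 1.77-fold lower (1.24 to 2.55). CETN4P, a unitary pseudogene of the centrin family, was 1.66-fold lower (1.09 to 2.59), and only 0.581% of its windows are shared. FAM86EP was 1.42-fold lower (1.01 to 2.02), SMG1P2 1.41-fold (1.07 to 1.87) and MRPS31P5, a copy of a mitochondrial ribosomal protein gene, 1.36-fold (1.01 to 1.83). RPL13AP5, with at least 392 reads against 531, was 1.23-fold lower (1.08 to 1.41). The folds of CBX3P2 (0.756, 0.498 to 1.14), SSR4P1 (0.782, 0.526 to 1.15) and RPSAP58 (0.798, 0.564 to 1.12) could not be told from 1.

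**Figure D2:**
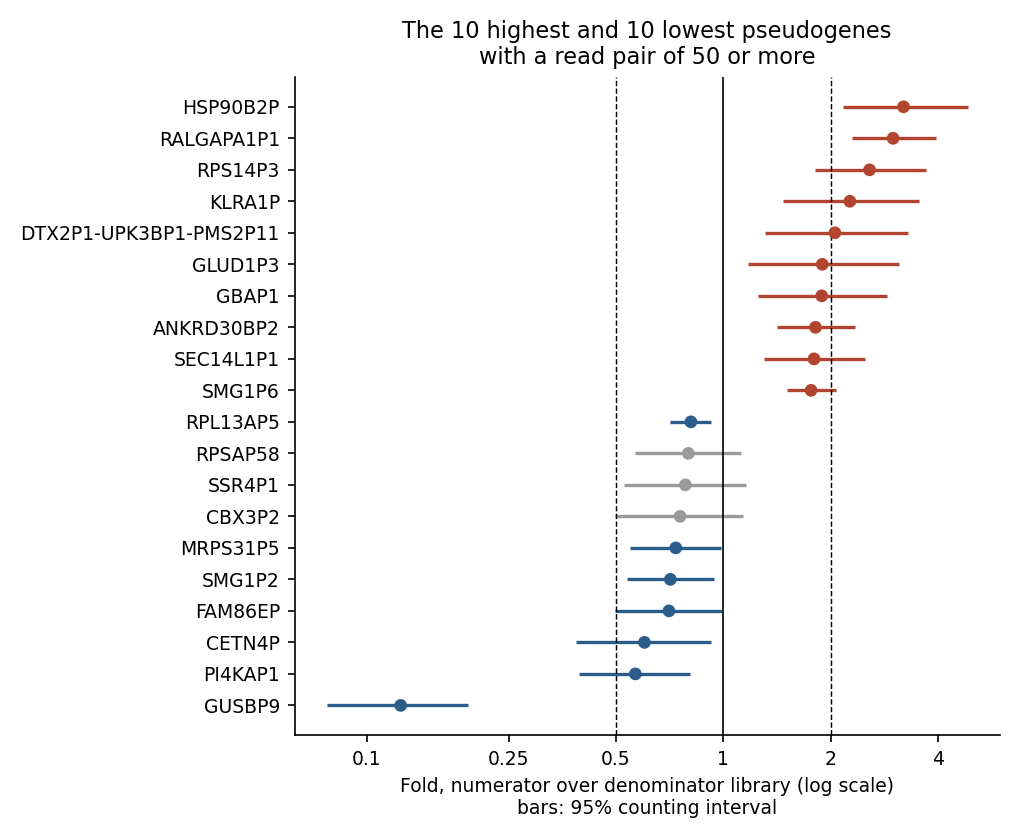
Fold of the numerator over the denominator library (x axis, log scale) for the 10 highest and the 10 lowest pseudogenes with a pair of 50 or more; bars are 95% counting intervals, red above 1, blue below 1 and grey holding 1. The 10 highest run from 1.76 to 3.20 with every interval above 1, and GUSBP9 at 0.124 stands apart from the other low values, which run from 0.567 to 0.811.

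Of 37 pseudogenes that have been described as regulatory RNAs and were listed for the comparison, 10 were in the table. None was 2-fold higher or lower, a count too small to set against the shares of 5.91% and 1.97% over all pseudogenes. Their median log2 fold change from the authors' deposited table was 0.30, with 6 above 0 and 4 below, near the 60.9% above 0 of all rows. PDIA3P1, a copy of a protein disulfide isomerase gene, stood at 0.954 (0.755 to 1.21) from at least 139 and 160 reads.

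RPSAP52, which is transcribed at the HMGA2 locus and has been described as a regulator of it, had at least 27 reads against 34 and a fold of 0.872 (0.506 to 1.49). The DUXA copies DUXAP10 and DUXAP8 stood at 1.23 (0.873 to 1.74) and 1.46 from a smallest pair of only 4 and 3 reads. GUSBP11 stood at 1.24 (0.917 to 1.68), MSTO2P at 1.23 (0.891 to 1.70), ANXA2P2 at 1.42 (0.806 to 2.53) and BMS1P20 at 0.989 (0.785 to 1.25). GBAP1, given above, was the only one of the 10 with an interval that left out 1, and 58.7% of its windows are shared with its parent.

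Copies of DNA repair genes came from few parents. None of 28 genes activated by p53 was a parent of a listed pseudogene. Of 23 repair and checkpoint genes, 2 had copies: the mismatch repair gene PMS2 with 7 and the checkpoint kinase gene CHEK2 with 1. None of these 8 was 2-fold higher or lower, and their median log2 fold change in the authors' deposited table was 0.09, with 5 above 0 (62.5%, against 60.9% of all rows) and 3 below. PMS2P7, with at least 357 reads against 319, stood at 1.23 (1.05 to 1.43) and was the only one whose interval left out 1. PMS2P3, with at least 395 against 448, stood at 0.968 (0.844 to 1.11), and PMS2P1, with 200 against 203, at 1.08 (0.886 to 1.32). PMS2P2 stood at 1.20 (0.819 to 1.75), PMS2P4 at 1.45 (0.764 to 2.78), PMS2P5 at 0.958 (0.586 to 1.56) and PMS2P9 at 0.861 (0.511 to 1.44). CHEK2P2 stood at 1.05 (0.750 to 1.48).

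Copies of chaperone genes numbered 4, and only HSP90B2P among them had an interval above 1. CCT6P1 and CCT6P3, copies of a gene of the cytosolic chaperonin, stood at 1.13 (0.867 to 1.46) and 0.941 (0.261 to 3.27). The median of the 4 log2 fold changes in the authors' deposited table was 0.05, with 2 above 0 and 2 below.

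Copies of genes of the translation machinery stood on both sides. Of 19, 12 lay above 0 (63.2%, against 60.9% of all rows) and 7 below, and the median log2 fold change from the authors' deposited table was 0.44. At least 2-fold higher were RPS14P3 and RPS18P9 (2.01, 0.683 to 6.63), which makes 10.5% against 16.3% of all rows, and none was 2-fold lower. Intervals lay above 1 for 3 copies (against 21.4% of all rows with a pair), which were RPS14P3, RPL23AP53 (1.45, 1.19 to 1.76) and RPS15AP10 (1.91, 1.05 to 3.55). They lay below 1 for another 3, which were MRPS31P5, RPL13AP5 and RPL21P28 (0.828, 0.715 to 0.958). RPL13AP5 and RPL21P28 are 99.5% and 99.4% identical to their parents, and 79.4% and 86.4% of their windows are shared.

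Zinc finger copies numbered 8 rows, 7 of them above 0 (87.5%, against 60.9% of all rows), with a median of 0.28 on the log2 scale of the authors' deposited table. The intervals of ZNF37BP, ZNF252P and ZNF300P1 (1.62, 1.28 to 2.07) lay above 1, as did 21.4% of all rows with a pair, and none lay below. Copies of genes for mitochondrial proteins, a list drawn up after the values were seen, numbered 10, of which 7 lay above 0, against 60.9% of all rows. Intervals lay above 1 for 5 of the 10, against 21.4% of all rows with a pair, and as the list was drawn up with the values known nothing is read from these counts: GLUD1P3, NDUFAF4P1 (1.74, 1.17 to 2.61), GCSHP3 (1.69, 1.18 to 2.42), SDHAP2 (1.39, 1.17 to 1.65) and SDHAP1 (1.26, 1.03 to 1.54). The interval of MRPS31P5 lay below 1. Copies of chromatin genes, also listed after the values were seen, were CBX3P2, MSL3P1, H3F3AP4, SUZ12P1 and REREP3, and all 5 intervals held 1.

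Copies of 1 parent did not always lie on the same side of the reference. Of the 14 parents with at least 3 copies in the table, all copies lay above 0 for 4 (GTF2I, FRG1, RRN3 and SDHA) and below 0 for 1 (BMS1), while 9 had copies on both sides. With the median of all rows as the reference, all copies lay above it for 1 parent (SDHA) and below it for 3 (BMS1, GOLGA2 and WASHC1), and 10 had copies on both sides. Of the 59 rows of these parents with a pair, 42 had an interval that held 1, as did 139 of the 201 pseudogenes with a pair. Over all rows with a pair, 21.4% of intervals lay above 1 and 7.72% below. As 60.9% of all rows lay above 0, a few unrelated rows would often lie on both sides of it too. Nothing about families is read from these counts. In the GUSB family, GUSBP9 stood apart from the rest: the 2 transcripts of GUSBP1 had folds of 0.965 (0.771 to 1.21) and 1.04 (0.781 to 1.39), GUSBP2 of 1.34 (0.506 to 3.67) and GUSBP11 of 1.24 (0.917 to 1.68). The interval of GUSBP9 overlapped none of them. The same was seen for PI4KAP1, whose interval (0.393 to 0.808) did not reach that of PI4KAP2 (1.26, 0.913 to 1.75), although 77.1% of the windows of PI4KAP1 also occur in PI4KAP2. SNX29P2, the other SNX29 copy, stood at 0.839 (0.548 to 1.28), above the interval of SNX29P1.

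The 6 SMG1 copies, all on chromosome 16, ran from 0.710 to 1.76. SMG1P1, with at least 911 reads against 683, stood at 1.47 (1.33 to 1.62), and SMG1P3, with 513 against 454, at 1.24 (1.09 to 1.41). With SMG1P6 at 1.76 these 3 lay above 1, whereas SMG1P2 at 0.710 (0.535 to 0.939) lay below. SMG1P5 (1.31, 0.936 to 1.82) and SMG1P7 (1.06, 0.628 to 1.80) held 1. Between 84.0% and 98.1% of the windows of the copies other than SMG1P7 (24.0%) are shared with other loci, and how the authors' counting divided such reads among copies was not tested.

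Apart from GUSB and SMG1, the widest gap between copies of these parents ran from 0.18 (FRG1) to 0.998 (FAM86B1) on the log2 scale. It was 1.31 for SMG1. The 5 HERC2 copies ran from 0.929 to 1.39, with HERC2P2, HERC2P9 (1.33, 1.14 to 1.55) and HERC2P10 (1.39, 1.12 to 1.72) above 1 and HERC2P3 at 0.942 (0.806 to 1.10). The GTF2I copies GTF2IP20 (1.54, 1.30 to 1.82) and GTF2IP4 (1.23, 1.03 to 1.47) lay above 1; GTF2I encodes a general transcription factor. Copies of SDHA, a gene for a subunit of succinate dehydrogenase, stood at 1.39 for SDHAP2, 1.26 for SDHAP1 and 1.17 (0.809 to 1.70) for SDHAP3. RRN3 encodes a factor that starts ribosomal RNA synthesis, and RRN3P2 (1.64, 1.14 to 2.36) lay above 1 while RRN3P1 (1.26, 0.948 to 1.68) and RRN3P3 (1.02, 0.828 to 1.26) held it.

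FRG1JP (1.11, 0.966 to 1.27) and FRG1HP (1.16, 0.996 to 1.36) held 1. So did the WASHC1 copies WASH7P (1.10, 0.987 to 1.23), WASH2P (0.928, 0.819 to 1.05) and WASH3P (0.877, 0.757 to 1.01), which derive from a gene of the actin-nucleating WASH complex. Among copies of GOLGA2, a gene for a Golgi matrix protein, GOLGA2P7 (0.873, 0.795 to 0.959) lay below 1 and GOLGA2P11 (1.05, 0.924 to 1.18) did not. FAM86DP, with at least 1130 reads against 1221, stood at 1.02 (0.937 to 1.10) beside its relatives FAM86FP at 0.980 (0.814 to 1.18) and FAM86EP, given above. The ribosomal RPSA copy RPSAP9 stood at 1.36 (0.951 to 1.95), beside RPSAP58 and RPSAP52, given above with folds under 1. BMS1P4, a copy of a ribosome biogenesis gene, stood at 0.947 (0.730 to 1.23).

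**Figure D3:**
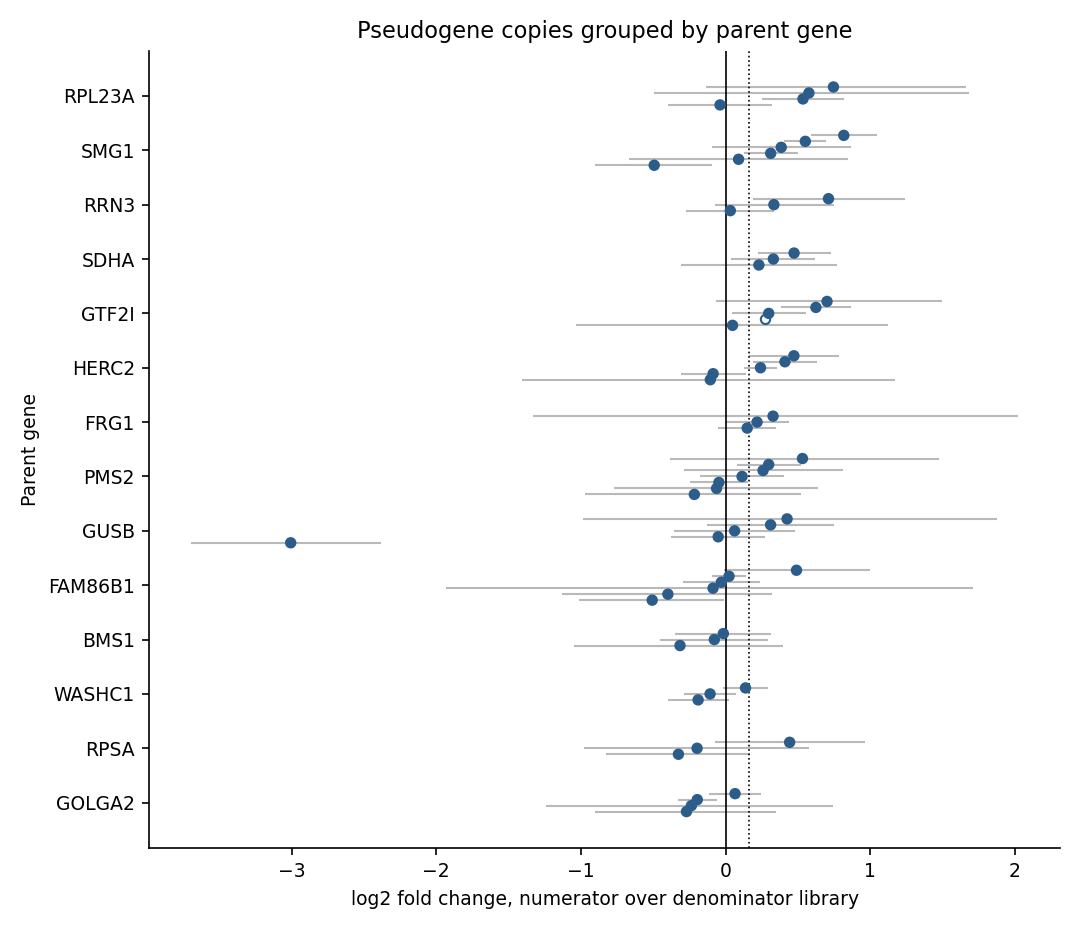
Log2 fold change from the authors' deposited table (x axis) for each copy of the 14 parent genes with at least 3 listed copies (y axis). Points are copies, grey bars their 95% counting intervals, the open circle GTF2IP1 without a pair, the solid line 0 and the dotted line the median of all rows (0.16); GUSBP9 at -3.01 lies far from the other GUSB copies, and 9 of the 14 parents have copies on both sides of 0.

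Taken by origin, processed pseudogenes had a median of 0.39 on the log2 scale of the authors' deposited table (58 rows), unprocessed ones of 0.12 (117 rows) and unitary ones of 0.34 (7 rows). At least 2-fold higher were 7 processed (12.1%), 2 unprocessed (1.71%) and 1 unitary pseudogene (14.3%), against 16.3% of all rows. At least 2-fold lower were 2 unprocessed (1.71%), 1 unitary (14.3%) and no processed one, against 6.35% of all rows. Among rows with a pair of 50 or more the medians were 0.12 for 35 processed and 0.14 for 82 unprocessed pseudogenes. The medians of the 2 kinds thus lay apart over all rows but close together over rows with larger pairs.

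The medians of processed copies also differed by where they lie, over few rows of the same 2 libraries. The 27 whose locus overlaps a coding gene on either strand had a median log2 fold change from the authors' deposited table of 0.53. Of them, 22 lay above 0 (81.5%, against 60.9% of all rows) and 5 were at least 2-fold higher (18.5%, against 16.3%). The 31 apart from coding genes had a median of 0.29, with 20 above 0 (64.5%) and 2 at least 2-fold higher (6.45%). With a pair of 50 or more the medians were 0.31 (16 rows) and -0.05 (19 rows). Over all kinds, 45 of 57 pseudogenes that overlap a coding gene (78.9%) lay above 0, against 89 of 140 that do not (63.6%). No source read here gives the strand setting of the counting, and RNA of the overlapped gene cannot be told apart from that of the pseudogene; its part was not tested.

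Medians at different levels of sequence sharing were close, while the share of values above 0 was not the same throughout. A 50-base window was called shared if it also occurred in a GENCODE 29 transcript of another locus. The median share was 21.8%, with 24 pseudogenes sharing none. The median log2 fold change from the authors' deposited table was 0.21 for 76 pseudogenes sharing under 10%, 0.16 for 58 sharing 10 to 50% and 0.20 for 63 sharing at least 50%. Above 0 lay 71.1%, 75.9% and 57.1% of these groups, and 2 of the 4 pseudogenes at least 2-fold lower shared at least 50%; the differences were not tested. Across 195 pseudogenes with both values the rank correlation of share and fold was -0.084, a description over genes of the same 2 libraries. Identity to the parent had a median of 94.0% over the 166 pseudogenes that could be aligned.

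**Figure D4:**
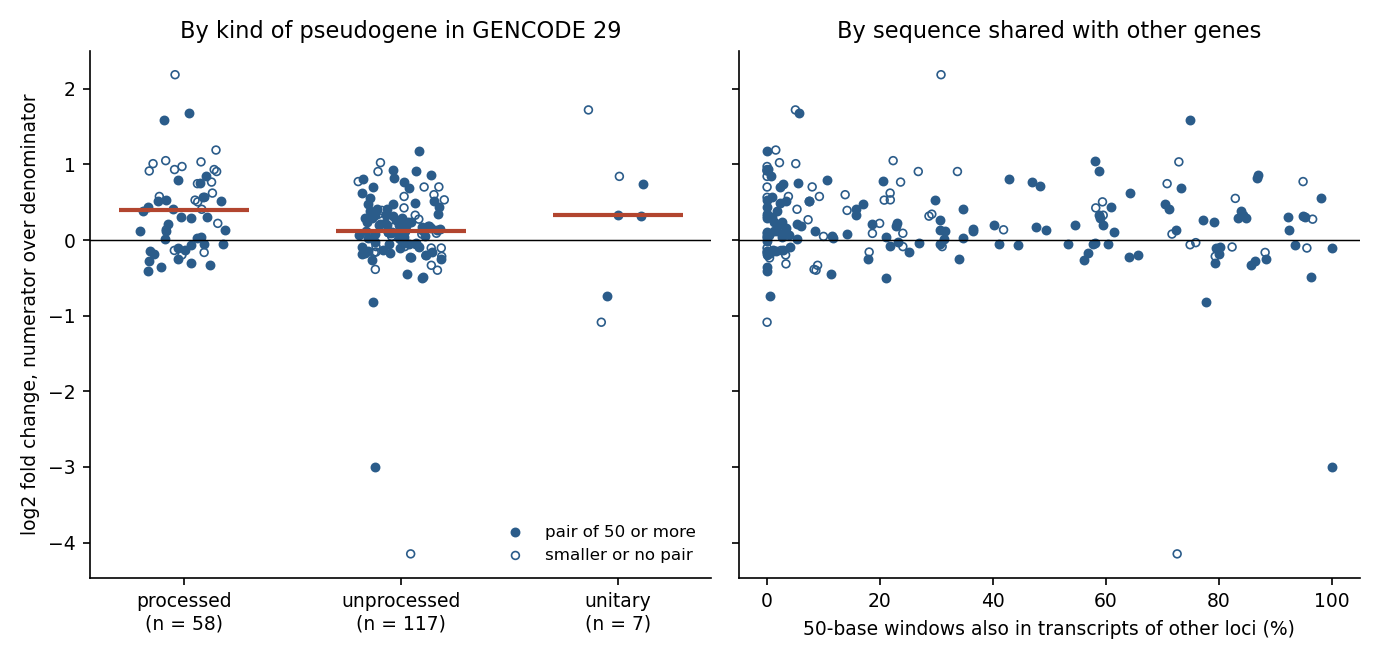
Log2 fold change from the authors' deposited table (y axis) by GENCODE 29 kind (left, red bars are medians: 0.39, 0.12 and 0.34) and by the percent of 50-base windows that also occur in transcripts of other loci (right). Filled points have a pair of 50 or more; the far low values are GUSBP9 and SNX29P1, both unprocessed and with most windows shared.

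The other 77 misc_RNA rows have names that the rule did not take, and whether they include pseudogenes was not checked. They had a median of 0.13 on the log2 scale of the authors' deposited table. Above 0 lay 46 (59.7%, against 60.9% of all rows). At least 2-fold higher were 6 (7.79%, against 16.3% of all rows) and none was 2-fold lower, against 6.35%. Their range, -0.71 to 1.38, was narrower than that of the pseudogenes, -4.15 to 2.19, but covers fewer rows. GUSBP9 and SNX29P1 alone lay below -3, and the next lowest pseudogene, LAMB2P1, stood at -1.14.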

How the data were processed

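The log2 fold change, p-value and q-value of each RNA were computed and deposited by the authors, per the file headers; the sources used here name no aligner, counting method, strand setting or test. Per the submitters' processing notes the genome build is mm10, a mouse build, although the identifiers are human, so no coordinates are printed. Per the labels' protocols, TransZol was used for total RNA and an mRNA-Seq kit for the libraries. The table's 2 columns of per-sample values match neither sample's labels and were not used here, so levels and total reads are unknown.

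The members and lists were chosen with earlier results of these data known. The most frequent log2 fold change, 0.14, was taken as equal reads in both libraries, and each fold was searched for the smallest whole-number pair up to 3000 within a relative tolerance of 1.5e-09, a step tested on simulated data. A pair was found for 3535 of 3576 rows. A 1 in a pair, as in MBL1P, HTR7P1 and CATSPER2P1, may stand for 0. No test between doses was possible with 1 library each.

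Named pseudogenes were those with a q-value under 0.05 (none), the 10 highest and 10 lowest with a pair of 50 or more, the known regulatory ones, up to 3 copies with the most reads for each parent with at least 3 copies, and copies of p53-activated or repair genes. The values of 1 known regulatory pseudogene are not reported here. Others were named after their values were seen: all rows past 2-fold, those with the most reads, further copies of the GUSB, SMG1, HERC2 and other families, and members of the remaining parent lists. Of the lists by parent, the one of segmentally duplicated families held 58 rows. Their median log2 fold change in the authors' deposited table was 0.12, with 36 above 0 (62.1%, against 60.9% of all rows). At least 2-fold higher was 1 (1.72%, against 16.3% of all rows) and at least 2-fold lower 1 (1.72%, against 6.35%).

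Parents were taken from the symbols. Identity came from blastn 2.17.0 (e-value up to 1e-10) and types, windows and sequences from GENCODE 29; biotypes came from RefSeq (GRCh38.p14). The alternatives tried were centring on the median over the table, pair minimums of 10 and 50, a 4-fold threshold, annotated pseudogenes only, 1 value per symbol, and leaving out pairs with a 1 or members with at least 50% of windows shared. Tables were computed with pandas 2.3.3, numpy 2.4.6 and scipy 1.17.1 and drawn with matplotlib 3.10.9, under Python 3.11.15.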

Additional observations from a re-analysis of the deposited data

How the results depend on the processing

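Scaling to the median of all rows (0.16 on the log2 scale) left 7 pseudogenes at least 2-fold higher in place of 12, and moved the median log2 fold change from 0.19 to 0.025. Of rows past 2-fold, 12 of 16 were higher before that scaling and 7 of 11 after it. A pair minimum of 50 left 5 higher and 1 lower, and a 4-fold threshold 1 higher and 2 lower, in place of 12 and 4. Keeping only pseudogenes with under 50% of windows shared, an alternative chosen after seeing the data, left 1 lower. Keeping only annotated pseudogenes removed no row and so tested nothing. Of the 26 summary values recomputed in other ways, the remaining 19 stayed within 1.5 times the reported count or, for the median, within its order-statistic range over the rows. Scaling to the median moves every fold by the same factor, so whether a fold stays within its counting interval depends only on the interval's width. Of the 70 folds chosen by the naming rule, 65 stayed within. The other 5 (GOLGA2P7, FAM86DP, WASH7P, HERC2P2 and SMG1P1) did not. A shift of this size cannot reverse a fold past 2-fold. Some folds just above 1 did change side, FAM86DP and WASH7P among them. EBLN3P, ZNF37BP, ZNF252P, CENPBD1P1 and H3F3AP4, described above for their many reads, were not among the 70 and also left their intervals. No paired analysis was possible because each dose has 1 library. Rows with small pairs, such as MBL1P and DUXAP8, have lower and upper interval bounds more than 10-fold apart. Their true reads may be a multiple of the pair, so whether they have few reads is not known.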

Other observations

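Of the symbols with 2 listed transcripts, GUSBP1, NSUN5P1, TEKT4P2 and ZNF767P, each had overlapping intervals for its transcripts. The NSUN5P1 transcripts, copies of a gene for an RNA methyltransferase of the large ribosomal subunit, stood at 1.06 (0.585 to 1.90) and 1.08 (0.853 to 1.36). Those of TEKT4P2, a copy of a gene for a ciliary microtubule protein, stood at 1.07 (0.834 to 1.38) and 1.12 (0.782 to 1.59). NSUN5P2, at another locus, had at least 617 reads against 791 and a fold of 0.857 (0.770 to 0.953).

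Several further pseudogenes with many reads had intervals above 1. FAR2P1, a copy of a fatty acyl reductase gene, had at least 659 reads against 412, a fold of 1.76 (1.55 to 1.99). The readthrough ARHGAP27P1-BPTFP1-KPNA2P3 stood at 1.71 (1.40 to 2.11), with ARHGAP27P1 itself at 1.48 (1.15 to 1.91). Among copies of cytoskeletal genes, ACTG1P20 stood at 1.44 (1.20 to 1.72) and TPM3P9 at 1.33 (1.13 to 1.57), while the interval of CFL1P1 (1.35, 0.937 to 1.95) held 1. SLC9A7P1 stood at 1.49 (1.24 to 1.79) and LRRC37A4P at 1.61 (1.28 to 2.03). These were chosen after their values were seen.

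The p-values of the authors' deposited table did not follow the read pairs. FRG1BP, at a fold of 1.26 from a smallest pair of 8 and 7 reads or a multiple of it, had a p-value of 0.0582 there. HSP90B2P, at a fold of 3.20, had one of 0.416 there.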
